A study of Mus musculus with 9 samples.

Results

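The comparison described here sets 3 libraries labelled Pam3CSK4 plus 3SL against 3 libraries labelled Pam3CSK4 alone, across every gene of the deposited count table. The libraries were taken by their labels, and they are 6 of the 9 libraries of the series. All hold RNA of C57BL6 bone marrow-derived macrophages harvested after 6 h; these cells are phagocytes that mature in a dish from marrow precursors. The Pam3CSK4-labelled libraries, coded D1, D2 and D3, are described as given 100 µg/ml of Pam3CSK4. The 3SL-labelled libraries, coded A2plus, B2plus and C2plus, are described as given the same amount together with 100 µl/ml of 3SL, a volume from which no amount of compound follows. Their titles write Pamc4 and their treatment tag writes Pamc4-CSL, and the descriptions were followed here. The other 3 libraries, coded A2, B2 and C2, are described as untreated, with PBS, and entered the fit only to estimate the spread. Nothing in the labels says that the libraries of a group are separate cultures or animals, so a p-value weighs a difference against the spread of these samples alone, and that spread may be technical.

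Pam3CSK4 is a synthetic bacterial-type lipopeptide that is sensed by Toll-like receptor 2 together with Toll-like receptor 1, and 3SL is taken from the series title to be 3'-sialyllactose, a sialylated sugar of milk. Receptor engagement recruits the adaptor MyD88 and IRAK kinases, which release the NF-κB transcription factors from their inhibitors and activate MAP kinases. In macrophages this is known to switch on cytokines, chemokines and feedback inhibitors, to shift metabolism toward glycolysis, and to slow proliferation.

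The inflammatory genes ran against the labels. Il1b, which encodes interleukin-1 beta, stood at 7.36, 4.31 and 7.03 CPM (a gene's counts scaled to the library's total times its TMM factor) in D1, D2 and D3, the libraries labelled as given the stimulus. It stood at 7495, 8353 and 8561 CPM in A2plus, B2plus and C2plus, and at 10260, 10560 and 9661 CPM in the libraries labelled untreated. Of 78 tested cytokine, chemokine and NF-κB genes, 73 were lower and 4 higher in the Pam3CSK4-labelled than in the untreated-labelled libraries (median log2 difference -2.88). In the comparison described here 71 were higher and 4 lower (median 2.93), and the 3SL-labelled libraries differed from the untreated-labelled by a median of -0.17. These 3 comparisons share libraries. The groups are kept as labelled, and every direction below rests on those labels. The codes start with D in one group and with A, B or C in the other, so the groups cannot be told apart from the meaning of those letters. Below, "higher" and "lower" always mean in the 3SL-labelled relative to the Pam3CSK4-labelled libraries, and a gene is called when the adjusted p of edgeR's quasi-likelihood test is under 0.05.

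Total counts of the 6 libraries ran from 7472482 to 15259545, and 3 counts corresponded to between 0.172 and 0.422 CPM, which cover counting error only. Within each group, pairs of libraries were further apart than counting noise (chi-square per degree of freedom 1.85 to 2.84). The first principal component of the 6 libraries held 92.3% of the variance and separated the groups, and the second held 2.57% and set A2plus (21.2) apart from B2plus (-7.94) and C2plus (-12.6). The median SD of log2 CPM over genes was 0.0763 among the Pam3CSK4-labelled and 0.0986 among the 3SL-labelled libraries. Mitochondrial messenger RNA took 1.18% to 1.26% and 1.06% to 1.07% of counts.

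Promoter stretches of 3 genes are shown here, because the results turn on inflammatory genes and on replication genes, and NF-κB and E2F are known regulators of these classes. They are the named members of the interleukin, chemokine, NF-κB, replication and mitosis lists with the largest fitted change and a match before the start, up to 2 for each motif. Sequences are from RefSeq promoters on GRCm38.p6, which run from 250 bases before to 50 bases after each start. They are written 5′ to 3′ on the gene's strand, and capitals mark the motif matches. In Il6, the interleukin-6 gene (chr5:30013040-30013109, plus strand), 1 match to the κB consensus ended 34 bases before the start. In Cxcl3, a neutrophil chemoattractant gene (chr5:90785998-90786068, plus strand), the capitals hold 2 overlapping κB matches, of which the last ended 62 bases before the start. In Mcm6, a subunit of the replicative helicase (chr1:128359715-128359845, minus strand), there were 3 matches to the E2F motif (TTTGGCGC, TTTCCCGC, TTTGCCGC or TTTCGCGC on either strand). The first 2 of these overlap, and the last ended 39 bases before the start.
Il6: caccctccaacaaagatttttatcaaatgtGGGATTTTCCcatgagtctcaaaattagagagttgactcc
Cxcl3: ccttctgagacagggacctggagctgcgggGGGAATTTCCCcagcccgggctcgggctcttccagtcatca
Mcm6: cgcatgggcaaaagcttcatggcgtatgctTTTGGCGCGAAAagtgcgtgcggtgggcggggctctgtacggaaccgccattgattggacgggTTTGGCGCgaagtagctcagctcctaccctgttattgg

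Compared with the Pam3CSK4-labelled libraries, the 3SL-labelled ones had far higher levels of cytokines, chemokines, NF-κB and interferon-stimulated genes. They had lower levels of genes for DNA replication, DNA repair and mitosis. Of 11469 genes tested, 3978 (34.7%) were higher and 4226 (36.8%) lower. At least 2-fold higher were 1207 genes (10.5%) and at least 2-fold lower 1433 (12.5%). The 2 groups did not overlap, with the 3SL-labelled libraries above, for 4072 genes (35.5%), and with them below for 4316 (37.6%). The upper end was the longer one: 68 called genes were at least 64-fold higher and 2 at least 64-fold lower. Among the called genes 3802 differed by less than 1.5-fold. The median log2 difference over all genes tested was -0.02, with quartiles of -0.49 and 0.39, and these values are the background for the counts given below. Genes at least 2-fold higher held 6.53% to 6.61% of all counts in the Pam3CSK4-labelled and 24.0% to 25.1% in the 3SL-labelled libraries. In the untreated-labelled libraries they held 25.5% to 25.9%. Genes at least 2-fold lower held 9.8% to 9.84% in the Pam3CSK4-labelled, 2.68% to 2.85% in the 3SL-labelled and 2.65% to 2.7% in the untreated-labelled libraries. By both shares the 3SL-labelled libraries lay near the untreated-labelled ones. Single genes could differ, such as Dhcr7, with means of 11.85 CPM in the 3SL-labelled and 6.77 CPM in the untreated-labelled libraries. With scaling by library size alone, the median log2 difference moved to -0.29 and the share of higher calls from 48.5% to 27.6%. A rise smaller than that shift turns into a fall under that scaling.

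**Figure D1:**
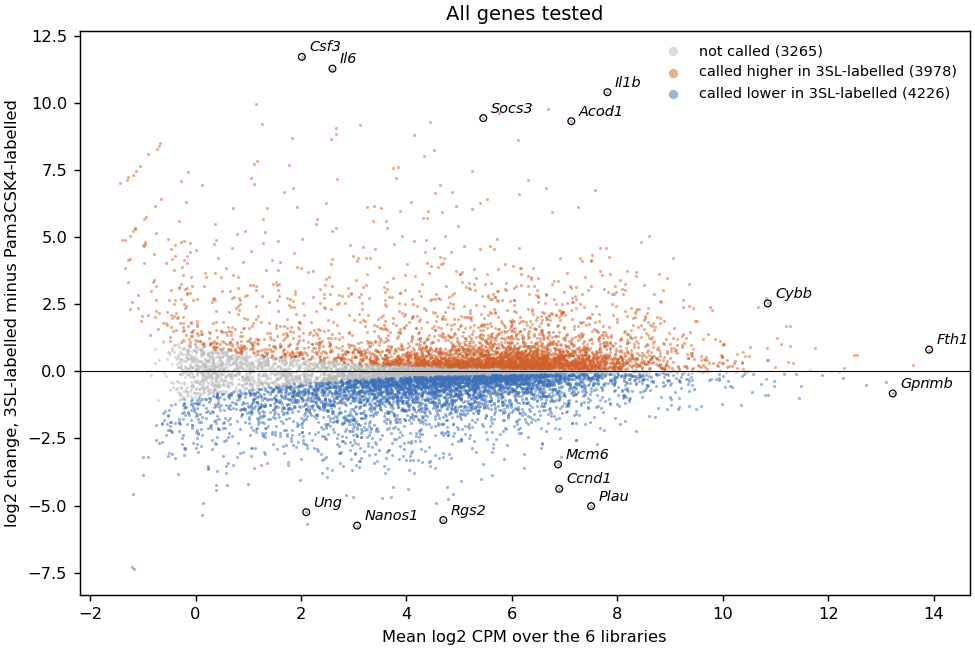
Each point is 1 of the 11469 genes tested, with the mean log2 CPM over the 6 libraries on the horizontal axis and the log2 difference between the 3SL-labelled and Pam3CSK4-labelled libraries on the vertical axis. The 3978 genes called higher reach past Il1b at 10.39, while the named genes called lower end near Nanos1 at -5.75.

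By the fitted change, the 10 top rises were Csf3, Il6, Il1b, Il1a, Saa3, Ptgs2, Socs3, Acod1, Cxcl3 and Serpinb2. Il1b (ENSMUSG00000027398; chr2:129364570-129371139 on GRCm38) had a log2 difference of 10.39 ± 0.25 (SE), a 1345-fold rise with an adjusted p of 8.94e-35. Here and below the log2 difference is the fitted one. The SE beside it comes from the spread of log2 CPM, with a prior count of 2, in each group. It is not the error of the fit, and the prior count narrows it where counts are few. Il1a, the sister cytokine gene, stood at 3.36, 2.99 and 4.05 CPM against 2581, 2986 and 3316 CPM and was 864-fold higher (adjusted p = 1.74e-32). The 10 rises were picked among called genes whose groups do not overlap, so the separation of their groups follows from the choice. Csf3, which encodes granulocyte colony-stimulating factor, had 1 count in the 3 Pam3CSK4-labelled libraries together, and stood at 99.9, 103 and 113 CPM in A2plus, B2plus and C2plus. The counting interval of its ratio ran from 817 to 179900. Il6 had 3 counts in the Pam3CSK4-labelled libraries and stood at 168, 192 and 216 CPM in the others, with an interval of 953 to 13520.

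Saa3, an acute-phase protein gene, rose from 9.12, 4.94 and 9.32 CPM to 5407, 6267 and 6117 CPM. Ptgs2, the inducible cyclooxygenase, rose from 2.32, 1.95 and 1.38 CPM to 1333, 1466 and 1636 CPM. Acod1, which makes itaconate, rose from 6.96, 4.31 and 5.50 CPM to 3259, 3473 and 3684 CPM. The groups were separated by 2 orders of magnitude or more for each of these enzymes and secreted proteins, with fitted folds of 788, 782 and 636 (adjusted p 9.1e-33, 9.1e-33 and 8.66e-35). Socs3, which feeds back on cytokine receptors, stood at 1.52, 1.21 and 2.22 CPM against 1094, 1134 and 1109 CPM (689-fold; adjusted p = 8.66e-35). Cxcl3 stood at 0.64, 0.344 and 1.76 CPM against 473, 552 and 582 CPM, with D3 above D1 and D2, and its log2 difference was 9.27 ± 0.59 (SE), or 10.14 without D3. Serpinb2, an inhibitor of plasminogen activators, stood at 0.24, 0.287 and 0.382 CPM against 146, 193 and 195 CPM (576-fold, on few counts in D1, D2 and D3, adjusted p = 2.1e-26).

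The 10 top falls came from genes of unlike function. Nanos1 (ENSMUSG00000072437; chr19:60755987-60759914), an RNA-binding repressor of translation, stood at 63.1, 55.8 and 54.6 CPM against 1.55, 0.783 and 1.02 CPM, a log2 difference of -5.75 ± 0.26 (SE; adjusted p = 5.45e-23). Plau (ENSMUSG00000021822; chr14:20836660-20843385), the urokinase gene, stood at 1090, 921 and 1082 CPM against 35.6, 34.2 and 26.4 CPM, 32.4-fold lower (adjusted p = 1.89e-28). Rgs2, which turns off G protein signals, stood at 178, 177 and 165 CPM against 4.78, 2.94 and 3.76 CPM, 46.5-fold lower. These falls were picked among called genes whose groups do not overlap, so the separation of their groups follows from the choice. Cd28, a costimulatory receptor known from T cells, was 29.7-fold lower, and the chromatin protein gene Hmga2 was 27.1-fold lower. Cxcr4, the receptor for the chemokine CXCL12, fell from 37.1, 45.9 and 34.7 CPM to 1.27, 1.18 and 2.14 CPM. Rasgrp3 (log2 -5.69, or -6.34 without A2plus), Ung (37.9-fold), Rnf144b (26.2-fold) and Cdca7l (25.8-fold) completed the 10, and the highest adjusted p among them was 1.27e-18, for Ung.

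**Figure D2:**
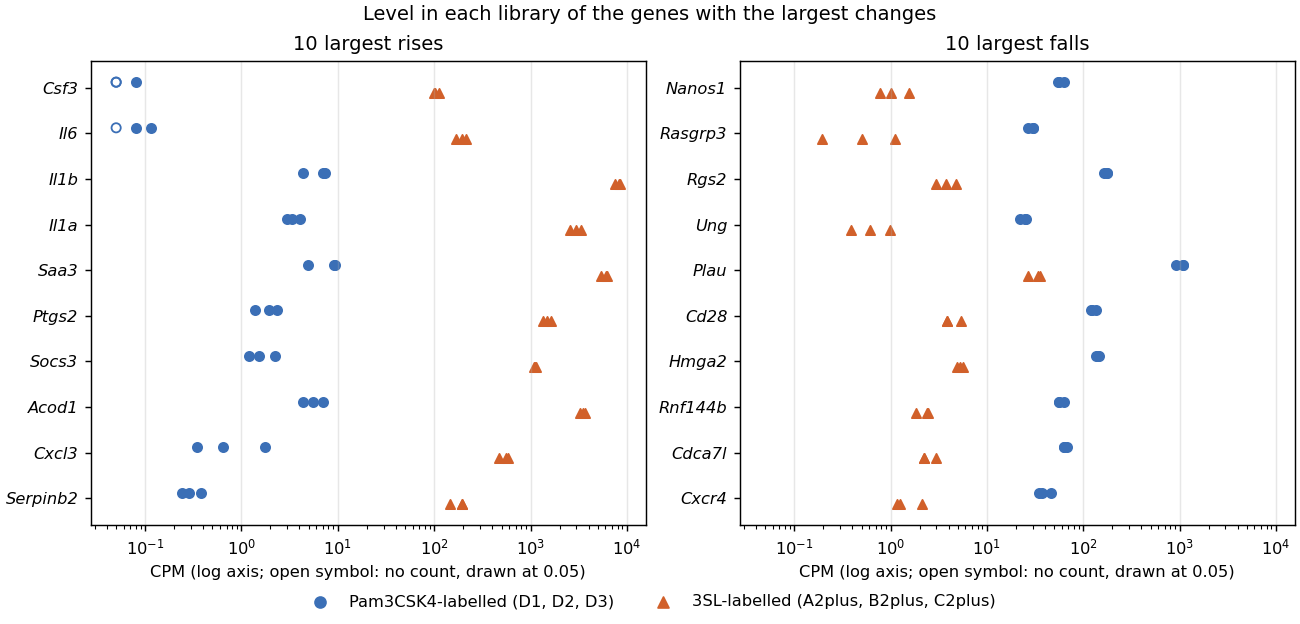
CPM in each of the 6 libraries, on a log axis, of the 10 genes with the largest fitted rise and the 10 with the largest fitted fall; circles are the Pam3CSK4-labelled and triangles the 3SL-labelled libraries, and open symbols are libraries with no count. The genes were chosen among those whose groups do not overlap. Il1b lies at 4.31 to 7.36 CPM in one and at 7495 to 8561 CPM in the other.

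In absolute CPM the largest gains were those of Fth1, the ferritin heavy chain that stores iron, Il1b, Saa3, Ccl9, Cybb and Acod1. Fth1 stood at 11660, 11620 and 11590 CPM against 20160, 21310 and 19560 CPM, only 1.75-fold higher (adjusted p = 5.6e-21). Cybb, the catalytic subunit of the phagocyte NADPH oxidase, stood at 772, 779 and 752 CPM against 4317, 4336 and 4634 CPM (5.77-fold). The largest losses were those of Gpnmb, Ctsb, Ctsd, Psap, Lgals3 and Ctsl, genes of lysosomal proteins and of galectin-3. Gpnmb, a glycoprotein of lysosome-rich macrophages, stood at 12580, 12950 and 12490 CPM against 7112, 7201 and 7170 CPM (1.77-fold lower; adjusted p = 2.22e-22). The cathepsin gene Ctsb fell 1.24-fold, from 16940, 17250 and 16790 CPM to 13720, 13840 and 13540 CPM. The housekeeping genes Actb and Gapdh were themselves called higher, with log2 differences of 0.61 and 0.76.

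Among interleukins, TNF family members and colony-stimulating factors, the secreted ligands that macrophages send to other cells, 21 of 25 tested were higher and 3 lower, and 1, Il15, was not called. The median log2 difference was 2.90, against -0.02 over all genes. Tnf stood at 18.9, 17.6 and 18.7 CPM against 1219, 1250 and 1332 CPM, 69.2-fold higher (adjusted p = 1.14e-34). Il12b, a subunit of interleukins 12 and 23, stood at 0.16, 0.402 and 0.0764 CPM against 108, 132 and 139 CPM, a log2 difference of 9.05, or 9.98 without D2. Its counts in D1, D2 and D3 were 2, 7 and 1. Il10, an anti-inflammatory cytokine, stood at 2.24, 3.44 and 2.45 CPM against 22.5, 19.2 and 21.4 CPM, 7.49-fold higher. Ligands with pro-inflammatory and with anti-inflammatory roles lay on the same side: Il1rn, the receptor antagonist of interleukin-1, was higher with a log2 difference of 2.41, and Tgfb1 with 0.46. The lower members were the TNF family genes Tnfsf12 (-1.57), Tnfsf14 (-2.00) and Tnfsf13b, the B-cell survival factor BAFF. Tnfsf13b stood at 1.12, 1.38 and 1.22 CPM against 0.422, 0.196 and 0.203 CPM. Thinned to equal depth, 1 member was called lower rather than 3. Il23a, Il33 and Lif had too few counts to be tested.

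Of 23 tested chemokines, which guide leukocyte movement, 20 were higher and 1 lower, with a median of 2.91; Ccl8 and Ppbp were not called. The neutrophil attractants Cxcl1 (8.79), Cxcl2 (8.62) and Cxcl3 had the largest log2 differences. Cxcl10, an interferon-inducible attractant of T cells, stood at 1.84, 1.61 and 2.14 CPM against 139, 134 and 169 CPM, 80.0-fold higher (adjusted p = 1.09e-22). Ccl2, the monocyte attractant, stood at 198, 158 and 217 CPM against 550, 601 and 614 CPM, only 3.10-fold higher. Ccl9 rose from 729, 687 and 682 CPM to 4644, 4735 and 4672 CPM. The single chemokine called lower was Cxcl14, at 22.1, 20.1 and 19.8 CPM against 4.64, 4.90 and 4.78 CPM. With library size alone 3 were lower.

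Receptors moved both ways, as did all genes tested, of which 34.7% were higher and 36.8% lower. Of 36 cytokine receptors 23 were higher and 9 lower (median 0.59), and Il6ra, Il12rb1, Il18rap and Tnfrsf11a were not called. Csf3r, the receptor for granulocyte colony-stimulating factor, rose with its ligand from 20, 26.8 and 23.8 CPM to 211, 218 and 237 CPM. Tnfrsf1b, the second TNF receptor, was higher with a log2 difference of 4.23, and Csf1r, the receptor for the macrophage growth factor, stood at 1611, 1597 and 1582 CPM against 2170, 2138 and 2081 CPM (1.33-fold). Tnfrsf9, a costimulatory receptor, had the largest fitted rise of the list (log2 4.55, or 5.86 without D1) on few counts, at 0.24, 0.0574 and 0 CPM against 2.53, 2.25 and 2.34 CPM. The lower ones included Kdr, a receptor for vascular endothelial growth factor, at 47.4, 43.6 and 43.7 CPM against 2.39, 3.23 and 3.86 CPM (13.8-fold). Il1rl1, the interleukin-33 receptor, was lower (log2 -3.07), as were the TGF-β receptors Tgfbr1 (-1.55) and Tgfbr2 (-1.49).

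Among 39 receptors for chemoattractants, prostanoids, purines and lipids, 25 were higher and 12 lower (median 0.62), and Ltb4r1 and Gpr35 were not called. Adora2a, an adenosine receptor that dampens inflammation, stood at 0.08, 0.115 and 0.153 CPM against 48.6, 50.5 and 52.7 CPM, 407-fold higher (adjusted p = 4.39e-25). The size of that fold rests on 1, 2 and 2 counts in D1, D2 and D3. The formyl peptide receptors Fpr1 (7.46) and Fpr2 (6.68), the niacin receptor Hcar2 (7.19) and Gpr84 (6.59), a receptor for medium-chain fatty acids, were higher by log2 differences of similar size. Against these, the purine receptors P2ry12 (-2.13) and P2rx7 (-1.03), the oxysterol receptor Gpr183 (-3.26) and the monocyte chemokine receptor Ccr2 (-1.16) were lower. C3ar1, the complement C3a receptor, stood at 1303, 1295 and 1258 CPM against 1447, 1334 and 1350 CPM. Its small rise was not called without A2plus and became a fall with library size alone (log2 -0.17).

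In the sensing pathway itself, 16 of 28 Toll-like receptor and adaptor genes were higher and 10 lower, with a median of 0.28, or 13 and 13 with library size alone, and Irak4 and Traf6 were not called. Tlr2 (ENSMUSG00000027995; chr3:83836272-83841767), the receptor of Pam3CSK4, stood at 51.7, 51.3 and 54.6 CPM against 978, 979 and 1014 CPM, 18.9-fold higher (adjusted p = 1.92e-33). Its partners Tlr1 (2.17) and Tlr6 (1.33) and the co-receptor Cd14, at 221, 206 and 210 CPM against 1991, 2104 and 2045 CPM, were higher as well. Tlr4, the lipopolysaccharide receptor, stood at 129, 126 and 128 CPM against 114, 109 and 116 CPM, a 1.13-fold fall. The nucleic acid sensors Tlr9 (-1.003), Tlr7 (-0.43) and Tlr13 (-1.27) were lower. Tlr5, the flagellin receptor, had 1 count in the 3SL-labelled libraries against 0.96, 1.15 and 1.07 CPM, with a ratio between 0.000853 and 0.202. The adaptor Myd88 was higher (1.70), and the inhibitory kinase-like protein Irak3 more so (4.23).

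All 30 genes of the NF-κB list, its subunits, inhibitors and feedback genes, were higher, by log2 differences from 0.22 to 6.43 and a median of 2.96, and 28 were with library size alone. Their groups did not overlap for 30 of 30, against 35.5% of all genes. Nfkbiz, an atypical inhibitor that helps to induce Il6, stood at 5.20, 5.05 and 4.43 CPM against 413, 419 and 437 CPM, 86.1-fold higher (adjusted p = 5.09e-33). The subunit genes Nfkb2 (3.65), Relb (3.12), Nfkb1 (2.44), Rel (1.84) and Rela (1.01) were higher. The inhibitor Nfkbia (4.57), the deubiquitinase Tnfaip3 (3.19) and the RNase Zc3h12a (4.65), which all restrain the pathway, were higher too. Tnfaip2, a TNF-inducible gene, rose from 144, 155 and 146 CPM to 1565, 1652 and 1702 CPM.

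Of 22 MAP kinase phosphatases and SOCS proteins, both of which shut off signals, 11 were higher and 10 lower (median 0.32), and Dusp8 was not called. The higher ones were led by Socs3, described above, and included Socs1 (5.22), Cish (5.12) and Dusp2 (4.56). Dusp10 had the largest fall, at 2.08, 2.58 and 1.99 CPM against 0.562, 0.392 and 0.61 CPM, followed by Socs6 (-1.48) and Dusp6 (-1.26).

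Among 34 inducible transcription factors of the AP-1, EGR and related families, 23 were higher and 7 lower, or 11 lower with library size alone, and the median was 0.75. Ier3, an immediate-early gene, stood at 8.16, 7.75 and 10.3 CPM against 190, 206 and 210 CPM, 23.4-fold higher. Junb (3.37), Batf (3.99) and Fosl2 (2.28) were higher, while Jun (-0.91) was lower. Klf4, a factor of macrophage differentiation, stood at 7.44, 7.52 and 7.34 CPM against 1.69, 2.35 and 1.53 CPM, and Klf2 was lower too (-1.95). Myc, a driver of growth, stood at 45.5, 36.7 and 52.4 CPM against 43.6, 39.0 and 35.1 CPM. These groups overlap and Myc was not called (adjusted p = 0.073); without D2 it was called lower (log2 -0.33, adjusted p = 0.00125), and likewise without A2plus (-0.26, adjusted p = 0.0278). Nr4a1, Nr4a2 and Id2 were not called.

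All 42 interferon-stimulated genes, which encode antiviral and antimicrobial proteins, were higher, with log2 differences of 0.63 to 6.63 and a median of 2.01, and 38 were at least 2-fold higher. Gbp5, a guanylate-binding protein that acts on pathogen membranes, stood at 1.84, 2.24 and 2.83 CPM against 192, 220 and 269 CPM, 98.8-fold higher (adjusted p = 3.46e-25). Reads of the related Gbp genes may be divided between copies, so single values in that family are uncertain. Slfn2, which supports cell survival, rose from 191, 190 and 176 CPM to 1083, 1129 and 1129 CPM. The libraries of the 3SL-labelled group were not alike: C2plus was the highest in all 42 genes and A2plus the lowest in 26, and the median log2 deviation from the group mean was 0.18 in C2plus and -0.10 in A2plus. D1 was the highest of its group in 29 of the 42. Ifnb1, the type I interferon gene, had too few counts to be tested.

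Of 19 interferon regulatory factors, STATs and JAKs 14 were higher (median 0.70) and 2 lower. Jak2, a kinase below many cytokine receptors, stood at 49.0, 51.0 and 49.7 CPM against 414, 424 and 478 CPM, 8.79-fold higher. Irf1 (1.69), Stat3 (1.33) and Stat2 (1.26) were higher. The lower ones were Stat6 (-0.23) and Stat4 (-0.57), and without D3 or without A2plus only 1 was called lower; Stat4 was also not called without C2plus. With library size alone 6 were lower. Irf8, a lineage factor of monocytes, stood at 159, 156 and 162 CPM against 159, 174 and 157 CPM and was not called, nor were Irf4 and Stat5b; with library size alone the log2 difference of Irf8 was -0.24 instead of 0.04.

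**Figure D3:**
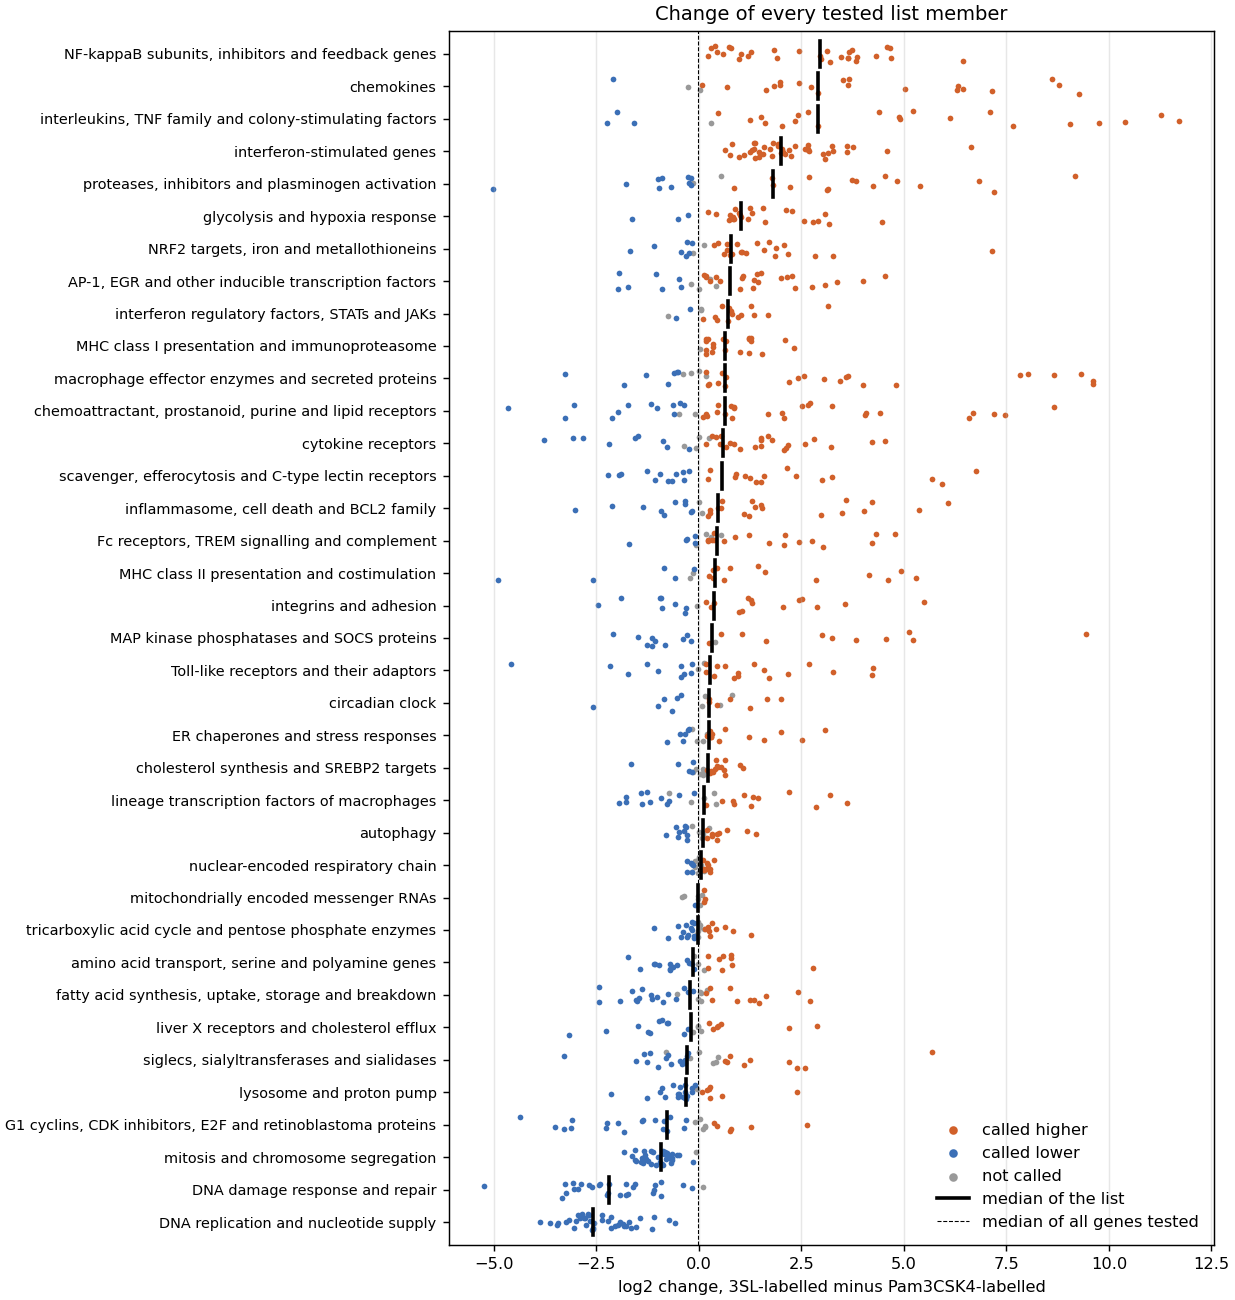
Every tested member of the gene lists is drawn as a point at its log2 difference, 3SL-labelled minus Pam3CSK4-labelled, with orange called higher, blue called lower and grey not called; the black bar is the list's median and the dashed line the median of all genes at -0.02. The NF-κB, chemokine and interleukin lists lie furthest right, with medians of 2.96, 2.91 and 2.90, and the DNA replication list furthest left at -2.59.

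Among 33 macrophage effector enzymes and secreted proteins 22 were higher and 7 lower (median 0.63), and Lyz1, Vegfa, Fn1 and Hbegf were not called. Nos2, the inducible nitric oxide synthase, stood at 0.24, 0.115 and 0.382 CPM against 85.5, 92.9 and 111 CPM, 403-fold higher (adjusted p = 9.12e-25). The size of that fold rests on 3, 2 and 5 counts in D1, D2 and D3. The arginine enzymes Arg2 (3.65), Ass1 (3.57) and Arg1 (2.41) were higher as well. Eicosanoid genes were split: Ptgs2 and the prostaglandin E synthase Ptges (8.03) were higher, whereas Ptgs1 (-1.82), Alox5 (-1.29) and Hpgd, which breaks prostaglandins down, were lower. Hpgd stood at 17.4, 16.9 and 15.1 CPM against 1.97, 2.15 and 1.02 CPM, 9.69-fold lower. Lyz2, the macrophage lysozyme, stood at 11600, 11170 and 11380 CPM against 13470, 13870 and 13310 CPM, and with library size alone its log2 difference went from 0.25 to -0.02.

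Proteases and their inhibitors included the widest range of any list, from Serpinb2 at 9.17 to Plau at -5.02: 16 of 28 were higher and 10 lower, with a median of 1.80, and Timp3 and Serpinb9 were not called. Plau and Plaur, the urokinase receptor (2.23), went in opposite directions, and the inhibitor gene Serpinb2 was higher. Mmp9, a gelatinase, rose from 7.84, 11.5 and 11.7 CPM to 259, 244 and 235 CPM, 23.4-fold. Mmp14 (6.84) and the coagulation factor F10 (4.25) were higher, while Adam8 stood at 2447, 2372 and 2432 CPM against 1396, 1292 and 1202 CPM.

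Genes of antigen presentation by MHC class I were higher for 20 of 21, with a median of 0.64, and Pdia3 was not called. With library size alone 13 were higher and 4 lower. B2m, the invariant light chain, stood at 2183, 2161 and 2107 CPM against 2648, 2777 and 2777 CPM, and the immunoproteasome activator Psme2 (2.09) and the transactivator Nlrc5 (1.54) were higher. H2-Q7 had the largest rise, from 4.56, 3.50 and 4.05 CPM to 14.5, 21.4 and 22.3 CPM, but its reads may be shared with other H2-Q genes. For MHC class II and costimulation 13 of 20 were higher and 5 lower (median 0.39), and H2-DMa and H2-DMb1 were not called. Cd40 (4.93), Icam1 (4.60) and Cd274, which encodes PD-L1 (4.16), were higher, and Havcr2, which encodes TIM-3, was lower (-2.59). Pdcd1lg2 had 1 count in the Pam3CSK4-labelled libraries and stood at 1.69, 0.881 and 1.22 CPM in the others, a ratio of 8.75 to 2125.

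Of 31 inflammasome, cell death and BCL2 family genes 19 were higher and 10 lower (median 0.47), with Ripk3 and Xiap not called. Mefv, which encodes the sensor pyrin, stood at 0.72, 1.84 and 1.45 CPM against 86.2, 97.4 and 96.9 CPM, 67.0-fold higher. Nlrp3 (3.58) and Casp4 (3.49) were higher, and Nlrp1b was lower, at 16.9, 20.6 and 19.9 CPM against 1.55, 2.25 and 3.05 CPM. Survival genes of one family parted: Bcl2 was lower (-2.13) and Bcl2l1 lower (-0.59), while Mcl1 stood at 549, 573 and 557 CPM against 827, 817 and 834 CPM and Bcl2a1a (5.35), Bcl2a1d (4.22) and Bcl2a1b (1.36), near-identical copies that may share reads, were higher.

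Of 29 factors that define macrophage identity 12 were higher and 12 lower, beside 34.7% and 36.8% of all genes tested. Their median was 0.12, and with library size alone the counts were 11 and 15. Spib, Cebpe, Runx1, Runx3 and Nfe2 were not called. Cebpd stood at 12.8, 12 and 14.8 CPM against 159, 165 and 160 CPM (12.3-fold higher), and Cebpb (3.19) and Spi1, which encodes PU.1 (1.26), were higher. Pparg, a lipid-sensing factor, fell from 40.6, 41.2 and 40.4 CPM to 10.96, 12.04 and 8.64 CPM. The factor gene Maf was 1.13-fold higher, and its log2 difference was 0.17, or -0.10 with library size alone.

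Scavenger, efferocytosis and C-type lectin receptors, which take up lipids, dead cells and microbes, were all called: 16 of 28 higher and 12 lower (median 0.56). Clec4e, the Mincle receptor of fungal and mycobacterial glycolipids, stood at 18.9, 16.9 and 19.1 CPM against 1835, 1952 and 2093 CPM, 108-fold higher (adjusted p = 1.14e-34). Marco (5.92) and Olr1 (5.67), scavenger receptors for bacteria and oxidised lipoproteins, were higher. Gas6, a bridge between dead cells and phagocytes, stood at 692, 717 and 713 CPM against 154, 155 and 146 CPM (4.67-fold), its receptor Mertk stood at 91.7, 103 and 93.8 CPM against 48.1, 46.3 and 44.7 CPM, and Mfge8 (-0.25) and Trem2 (-0.96) were lower too. The related receptor Axl was higher (0.91). Mrc1, the mannose receptor, stood at 1180, 1212 and 1194 CPM against 498, 488 and 494 CPM, 2.42-fold lower (adjusted p = 6.25e-24), and the fatty acid transporter Cd36 at 2258, 2321 and 2212 CPM against 1757, 1788 and 1766 CPM.

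Of 26 Fc receptor, TREM and complement genes 17 were higher and 5 lower (median 0.45), and Tyrobp, Hcst, Pira2 and C4b were not called. Cfb, factor B of the alternative complement pathway, stood at 0.16, 0.459 and 0.611 CPM against 10.4, 11.5 and 12.8 CPM (27.3-fold), and C3 was higher (4.21). The classical pathway genes C1qa (-0.10), C1qb (-0.10) and C1qc (-0.31) were lower by small amounts, and C1qb was not called without C2plus. Cd93 stood at 748, 784 and 751 CPM against 258, 223 and 221 CPM.

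In a list of 30 genes of sialic acid receptors, sialic acid synthesis, transfer and removal, and galectins, which bind galactosides, 9 were higher and 15 lower, with a median of -0.28. Siglece (ENSMUSG00000030474; chr7:43651070-43660161), an inhibitory sialic acid receptor of myeloid cells, stood at 2.88, 3.33 and 1.91 CPM against 140, 145 and 146 CPM, 51.8-fold higher (adjusted p = 2.04e-28). Siglec1, the adhesive receptor sialoadhesin, stood at 368, 403 and 381 CPM against 274, 251 and 308 CPM, 1.38-fold lower. The sialyltransferase St6gal1, which adds sialic acid in α2,6 linkage, fell from 53.1, 54.3 and 49.3 CPM to 5.20, 5.39 and 5.29 CPM, 9.85-fold. The α2,3 sialyltransferases St3gal1 (2.21), St3gal3 (2.40) and St3gal4 (1.24) were higher and St3gal2 was lower (-0.35). Genes of sialic acid supply were lower where called, Cmah (-1.34), Slc17a5 (-1.27), Gne (-0.81), Nans (-0.76) and Cmas (-0.41), and the sialidase Neu1 stood at 112, 118 and 119 CPM against 90.5, 95.1 and 91.6 CPM. The galectin gene Lgals3 stood at 3914, 4043 and 3862 CPM against 1911, 2052 and 1912 CPM.

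Adhesion genes were higher for 14 of 23 and lower for 8 (median 0.36), and Itgav was not called. Itgb8, an integrin subunit that activates TGF-β, stood at 0.56, 0.861 and 0.535 CPM against 28.3, 29.2 and 34.4 CPM (45.1-fold), and Itgal (3.57) and Itga5 (2.87) were higher. Itga6, a laminin receptor subunit, stood at 284, 285 and 280 CPM against 50.2, 50.3 and 52.5 CPM, 5.55-fold lower. Cd300a was lower too (-1.89).

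Glycolysis and hypoxia-response genes were all called, 24 of 27 higher and 3 lower, with a median of 1.03. The transporter gene Slc2a6 stood at 5.28, 6.37 and 6.57 CPM against 121, 140 and 138 CPM (21.9-fold; adjusted p = 1.51e-26). The regulator Pfkfb3 (3.17), the lactate exporter Slc16a3 (2.90), the glucose transporter Slc2a1 (2.57) and the enzyme Pfkl (2.12) were higher. Pkm, pyruvate kinase, stood at 1608, 1578 and 1576 CPM against 2132, 2158 and 2079 CPM. The lower ones were Hk3 (-0.52), Slc16a1 (-0.26) and the neuronal-type transporter Slc2a3, at 16.2, 16.4 and 18.7 CPM against 6.18, 5.29 and 5.18 CPM. Enzymes of the tricarboxylic acid cycle and pentose phosphate pathway had a median of -0.03, with 9 of 31 higher and 14 lower, or 4 and 22 with library size alone. Idh2, a mitochondrial isocitrate dehydrogenase, fell from 84.5, 84.1 and 75.7 CPM to 40.2, 36.2 and 38.4 CPM, and the NADPH-producing Pgd stood at 517, 502 and 525 CPM against 910, 948 and 901 CPM.

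The nuclear-encoded respiratory chain had a median of 0.05, and 16 of 31 genes were not called. By TMM scaling 9 were higher and 6 lower, and with library size alone 0 and 24, so no direction is given. Of 11 mitochondrially encoded messenger RNAs 3 were higher and 1, mt-Cytb, was lower (median -0.01), while library size alone gave 0 and 8; 0 were lower without D2 or without A2plus, and 2 without C2plus.

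Antioxidant, iron and metallothionein genes were higher for 21 of 30 and lower for 7 (median 0.78), and Keap1 and Txnrd2 were not called. Slc7a11, the cystine importer that supplies glutathione synthesis, stood at 6.96, 7.29 and 5.43 CPM against 885, 915 and 1006 CPM, 141-fold higher (adjusted p = 5.09e-33). Mt2 (3.27), Txnrd1 (1.87) and Hmox1, heme oxygenase (1.71), were higher. Of the iron genes, the storage gene Fth1 and the zinc and iron importer Slc39a14 (2.83) were higher, and the iron exporter Slc40a1 fell from 666, 730 and 669 CPM to 216, 221 and 211 CPM. The transferrin receptor Tfrc (-1.10) and the ferritin light chain Ftl1 (-0.24) were lower.

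Of 26 genes of amino acid transport, serine and polyamine synthesis 9 were higher and 14 lower (median -0.14), and Slc7a5, Psph and Amd1 were not called. Slc7a2, an arginine importer, stood at 36.6, 31.5 and 36.5 CPM against 225, 221 and 264 CPM. Shmt1, an enzyme of one-carbon metabolism, fell from 10.5, 10.04 and 10.6 CPM to 3.23, 3.04 and 3.15 CPM, and Mthfd1 was lower as well (-1.44).

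Lipid genes moved both ways, as did all genes tested (34.7% higher and 36.8% lower). In the list of cholesterol synthesis and SREBP2 targets 14 of 26 were higher and 5 lower (median 0.22), but 8 and 9 with library size alone. Hsd17b7 (1.01) and Fdft1 (0.64), enzymes of the pathway, were higher. Dhcr7, the last step of the pathway, fell from 36.2, 41.0 and 33.6 CPM to 13.1, 10.4 and 12.1 CPM. Of 22 liver X receptor and cholesterol efflux genes 7 were higher (4 with library size alone) and 11 lower, with a median of -0.21, and Rxrb, Apoe, Pltp and Npc2 were not called. Abca1 (ENSMUSG00000015243; chr4:53030787-53159895), which exports cholesterol to apolipoprotein A-I, stood at 83.3, 92.2 and 95.8 CPM against 649, 626 and 727 CPM, 7.37-fold higher (adjusted p = 2.1e-26).

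The second exporter, Abcg1, stood at 22.6, 27.9 and 21.5 CPM against 20.2, 19.4 and 21.04 CPM, a 1.20-fold fall (adjusted p = 0.0179) that was not called without D2 (adjusted p = 0.238) or without B2plus (0.0768), nor by DESeq2 (0.0551). Mylip, a liver X receptor target, stood at 14.1, 17.6 and 17.0 CPM against 18.6, 25.3 and 26.02 CPM. Nceh1, a hydrolase of cholesterol esters, fell from 632, 625 and 614 CPM to 70.1, 72.0 and 65.3 CPM, 9.03-fold (adjusted p = 2.85e-29). The acid lipase Lipa (-1.25), the esterifying enzyme Soat1 (-0.77), the lysosomal exporter Npc1 (-0.91) and Cyp27a1 (-1.48) were lower. Apoe stood at 4815, 4723 and 4664 CPM against 4743, 4752 and 4543 CPM, with overlapping groups; with library size alone it was called lower (log2 -0.29).

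Of 34 fatty acid genes 11 were higher and 17 lower (median -0.21). Acsl1, which activates fatty acids, stood at 57.8, 56.7 and 59.2 CPM against 382, 385 and 366 CPM (6.53-fold), and Dgat2 (2.40), which makes triglyceride, was higher. Lpl, the lipoprotein lipase, stood at 1781, 1881 and 1679 CPM against 3405, 3455 and 3367 CPM. The lower ones included the desaturases Scd1 (-1.54) and Fads1 (-1.64), the elongase Elovl6 (-1.91), the mitochondrial importer Cpt1a (-1.45) and the binding proteins Fabp4 (-1.51) and Fabp5 (-1.02). Ppargc1b, a coactivator of mitochondrial genes, stood at 2, 2.93 and 3.59 CPM against 1.12, 0.392 and 0.203 CPM, and its log2 difference was -2.44, or -3.22 without A2plus.

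Lysosomal genes were lower for 20 of 29 and higher for 7 (2 with library size alone), with a median of -0.32, and 2, among them Lamp2, were not called. Their summed level was 62660 to 64450 CPM in the Pam3CSK4-labelled and 48580 to 49520 CPM in the 3SL-labelled libraries. Most of the falls were small, and 2 were at least 2-fold, Atp6v0d2, a proton pump subunit, at 249, 262 and 236 CPM against 54.8, 57.0 and 56.4 CPM, and Gla (-1.27). Ctsc, the cathepsin that activates granule proteases, went the other way, from 378, 370 and 383 CPM to 1919, 1972 and 2041 CPM. Autophagy genes had a median of 0.10 with 10 of 25 higher and 9 lower, and 6 and 14 with library size alone. Over all genes tested 34.7% were higher and 36.8% lower in the main fit. Sqstm1, the cargo receptor p62, stood at 512, 517 and 532 CPM against 1356, 1402 and 1360 CPM, and Atg7 at 67.4, 72.4 and 68.5 CPM against 40.8, 40.7 and 39.0 CPM. Of 23 chaperone and stress-response genes 13 were higher and 6 lower (median 0.24), but 7 and 10 with library size alone, and Ern1, Trib3, Sesn2 and Hsph1 were not called. Hspa1a had the largest rise (3.07), although its reads may be shared with its copy Hspa1b.

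The cell cycle genes stood at the opposite end. All 41 genes of DNA replication and nucleotide supply were lower, with log2 differences from -0.60 to -3.87 and a median of -2.59, and 39 were at least 2-fold lower, against 12.5% of all genes. The groups did not overlap for any of the 41. Mcm2, a subunit of the replicative helicase, stood at 198, 178 and 186 CPM against 14.2, 12.1 and 12.3 CPM, 14.7-fold lower (adjusted p = 1.12e-26). Mcm6 (ENSMUSG00000026355), whose promoter is shown above, stood at 403, 385 and 379 CPM against 36.4, 37.6 and 31.9 CPM, 11.04-fold lower. Pcna, the sliding clamp of the polymerases, stood at 548, 534 and 526 CPM against 154, 153 and 138 CPM, 3.61-fold lower. Licensing factors Cdc6 (-3.63) and Cdt1 (-2.998), the polymerase subunit Pole (-2.81), and the nucleotide enzyme Rrm2 (-2.60) were lower, and Orc2 (-0.60) and Tyms (-0.73) were the members under 2-fold.

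DNA repair genes were lower for 28 of 29, with a median of -2.20, and Lig3 was not called. Ung, which removes uracil from DNA, stood at 25.4, 21.9 and 25.1 CPM against 0.984, 0.392 and 0.61 CPM. Parp1, a sensor of DNA breaks, stood at 220, 207 and 211 CPM against 69.3, 72.8 and 73.1 CPM, 2.96-fold lower. The mismatch repair gene Msh6 (-3.07), the recombination genes Brca1 (-2.96) and Brca2 (-3.06), and the checkpoint kinase Chek1 (-3.24) were lower.

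Genes of mitosis were lower for 37 of 38 with a smaller median, -0.93, and 18 were at least 2-fold lower; Bub3 was not called. Ttk, a spindle checkpoint kinase, stood at 31.8, 28.6 and 32.7 CPM against 9.42, 9.60 and 7.22 CPM, 3.55-fold lower. Mki67, the proliferation marker, stood at 361, 371 and 378 CPM against 242, 217 and 234 CPM, 1.61-fold lower (adjusted p = 1.94e-14). Cdk1 (-0.88), Ccnb1 (-0.65), Plk1 (-0.89) and Aurka (-0.53) were lower. In bulk samples fewer cycling cells and less RNA of these genes per cell cannot be told apart.

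The G1 regulators were less uniform, 18 of 29 lower and 6 higher with a median of -0.78, and Ccnd3, Cdkn1c, Cdkn2d, E2f3 and E2f4 were not called. Ccnd1 (ENSMUSG00000070348; chr7:144929931-144939925), cyclin D1, stood at 542, 511 and 566 CPM against 31.8, 25.2 and 22.4 CPM, 20.8-fold lower (adjusted p = 2.57e-28). Ccnd2, its sister cyclin, was 1.72-fold higher, at 8.16, 7.63 and 8.56 CPM against 14.3, 12.4 and 15.2 CPM. E2f1, an activator of replication genes, stood at 73.1, 73.2 and 78.3 CPM against 26.98, 29.2 and 29.8 CPM, and E2f2 (-3.51) and E2f8 (-3.11) were lower. The inhibitors of cyclin-dependent kinases Cdkn1a, at 171, 178 and 173 CPM against 403, 413 and 432 CPM, and Cdkn2b, at 1.52, 1.32 and 1.30 CPM against 7.17, 8.42 and 9.66 CPM, were higher.

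**Figure D4:**
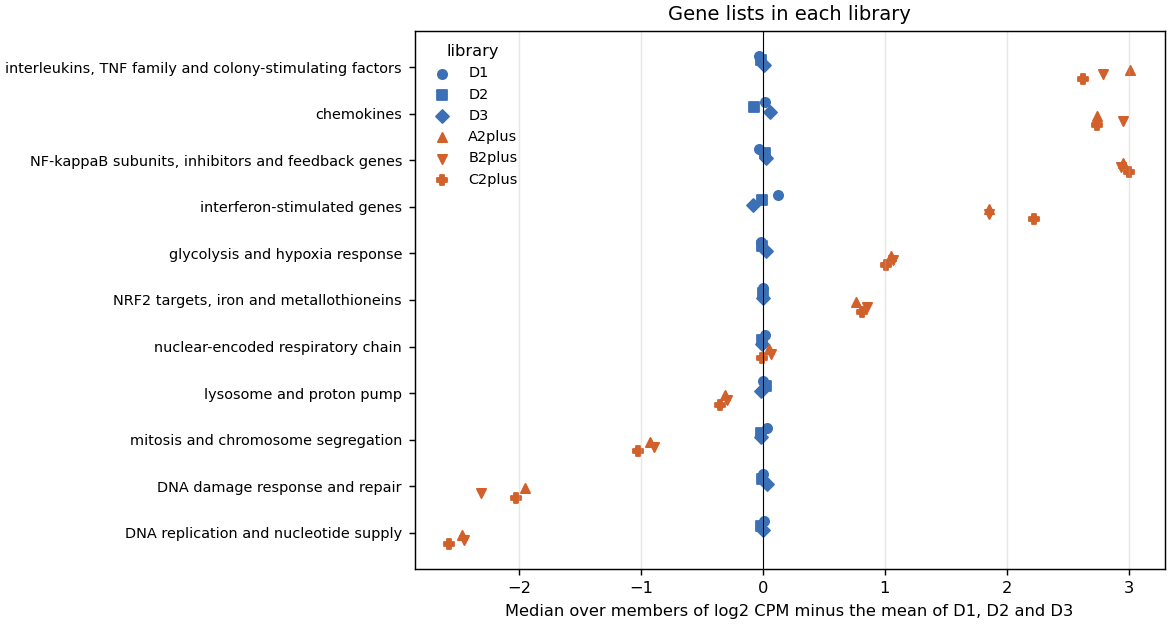
For 11 gene lists, the median over tested members of log2 CPM minus the mean of D1, D2 and D3 is drawn for each library, blue for Pam3CSK4-labelled and orange for 3SL-labelled. The 3SL-labelled libraries lie at 1.86, 1.85 and 2.22 for interferon-stimulated genes, with C2plus furthest out, and at -2.47, -2.46 and -2.58 for DNA replication.

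Within the 3SL-labelled group A2plus was the lowest library for 13 of the 21 higher interleukin-list genes and for 16 of the 20 higher chemokines, and C2plus the highest for 15 and 13. The spread was small beside the difference between groups: over the chemokines the median deviations from the group mean were -0.06, 0.02 and 0.07 on the log2 scale in A2plus, B2plus and C2plus. Over the 41 replication genes A2plus was the highest in 18, B2plus in 12 and C2plus in 11.

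Among 17 clock genes 7 were higher and 6 lower (median 0.24), beside 34.7% and 36.8% of all genes tested. Arntl, Per2, Nr1d1 and Hlf were not called. The repressor gene Nfil3 stood at 5.04, 6.66 and 5.12 CPM against 24.0, 20.95 and 24.3 CPM, and the clock output factor Dbp at 6.96, 8.38 and 9.78 CPM against 1.12, 1.18 and 1.83 CPM, 5.97-fold lower.

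Motif matches were counted in the promoter windows of 300 bases, of which a gene may have more than 1. A κB consensus match was found in 4.51% of all 32851 windows and in 5.22% of those of tested genes. For genes at least 2-fold higher it was found in 9.28% (115 of 1239), for genes at least 2-fold lower in 4.45%, and for genes not called in 4.86%. It was found in 3 of 37 windows of the interferon-stimulated genes (8.11%, exact 95% interval 1.7% to 21.9%), in 12 of 36 of the NF-κB list (33.3%, 18.6% to 51.0%), in 5 of 16 of the chemokines (31.2%, 11% to 58.7%) and in 4 of 22 of the interleukin list (18.2%, 5.19% to 40.3%). The E2F motif was found in 2.26% of all windows and in 3.94% of those of tested genes. For genes at least 2-fold lower it was found in 7.46% (109 of 1461), for genes at least 2-fold higher in 1.53%, and for genes not called in 3.42%. It was found in 14 of 41 windows of the replication genes (34.1%, 20.1% to 50.6%) and 5 of 24 of the repair genes (20.8%, 7.13% to 42.2%), against 1 of 34 of the mitosis genes (2.94%, 0.0744% to 15.3%). The intervals take windows as independent, although windows of 1 gene can be alike, so they do not describe the spread over genes. In the NF-κB list the 36 windows came from 26 genes, and the 12 with a match from 10 genes. These are descriptions of letters in a window, without a test, and a match is not a bound site.

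**Figure D5:**
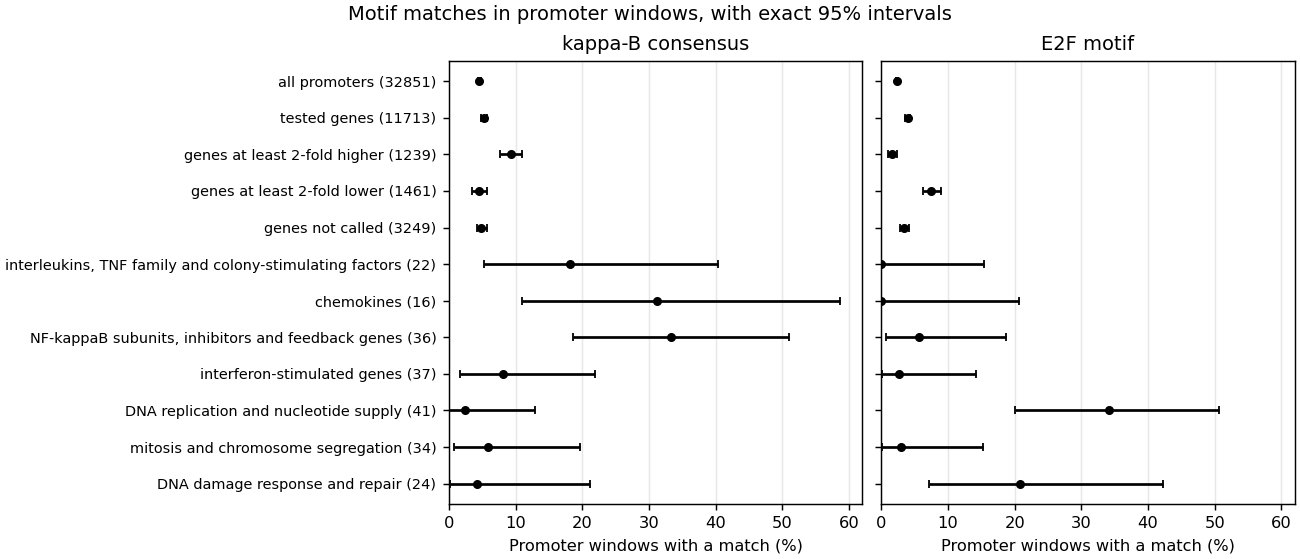
Share of promoter windows with a match to the κB consensus (left) and to the E2F motif (right) for each set of genes, with the number of windows in parentheses and bars giving exact 95% binomial intervals. The intervals take windows of the same gene as independent. The κB share is 33.3% for the NF-κB list and 2.44% for the replication genes, and the E2F share is 34.1% for the replication genes and 5.56% for the NF-κB list.

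The labelled cell type was checked against its markers. All 18 macrophage markers were tested, 8 higher and 10 lower, and their summed level was 41930 to 42690 CPM in the Pam3CSK4-labelled and 44820 to 46140 CPM in the 3SL-labelled libraries. Of the 15 neutrophil and granulocyte precursor markers 14 were tested, 5 higher and 5 lower, with 8 lower under library size alone, and the sum was 481 to 611 CPM against 780 to 863 CPM. Their defining surface marker Ly6g had 0 to 5 counts in a library, S100a9 stood at 115, 147 and 161 CPM against 181, 199 and 205 CPM, and Csf3r accounted for most of the gain. The 5 lower members were Retnlg, Mpo, Elane, Prtn3 and Mmp8, and the median log2 difference of the list was -0.3. Of 11 dendritic cell markers 7 were tested, 4 higher and 1 lower, with a sum of 5.12 to 6.37 CPM against 52.4 to 55.4 CPM. Fscn1, an actin bundler, accounted for most of this, at 0.64, 0.746 and 0.306 CPM against 46.0, 44.8 and 46.3 CPM, while Clec9a had 0 to 7 and Cd209a 0 to 3 counts. The part of these cells in the results was not tested.

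Of 14 lymphocyte markers 3 were tested, and Cd4 (-0.34) and Il7r were lower; without D2, D3, B2plus or C2plus only 1 was. Il7r, the interleukin-7 receptor, stood at 256, 252 and 244 CPM against 35.1, 35.8 and 34.2 CPM, 7.14-fold lower, and set the sum of the list, 258 to 267 CPM against 43.2 to 46.8 CPM. The T-cell genes Cd3e, Cd3d and Cd3g had 0 to 2 counts in a library. Of 12 stromal and endothelial markers 6 were tested, 2 higher and 2 lower, with sums of 93.2 to 96.9 CPM against 40.1 to 45.4 CPM, mostly from Kdr and Vwf. Of 11 erythroid, mast and basophil markers only Kit was tested, and without B2plus it was not called. Of 10 osteoclast markers 7 were tested, 2 higher and 4 lower, with sums of 335 to 358 CPM against 426 to 442 CPM, and Calcr and Oscar had 0 to 1 count. The higher ones were Acp5 and Mmp9, whose mean rose from 10.4 to 246 CPM. Ctsk, Atp6v0d2, Nfatc1 and Itgb3 were lower, and the median log2 difference of the list was -0.9.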

How the data were processed

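Total RNA of bone marrow-derived macrophages was sequenced, per the labels, from 9 libraries in 3 groups, of which 6 form the comparison. The values are raw counts per gene deposited by the authors in 1 table of 22001 mouse Ensembl identifiers. The submitters' processing notes name HISAT2 2.1.0, featureCounts, Subread and the human build hg38, so the build behind the counts is not settled; strand setting and annotation release are not given in the sources used here. Without strand, reads from overlapping and antisense genes cannot be separated. The table's 15 columns of other samples were not used.

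Genes were kept by filterByExpr (11469 tested; 5264 identifiers had no count), scaled with TMM factors and tested with edgeR 4.0.16 (quasi-likelihood, R 4.3.3) in 1 model of 9 libraries, with Benjamini-Hochberg adjustment over all genes tested and a threshold of 0.05. CPM values use TMM-scaled library sizes, and do not allow levels of different genes to be compared. Symbols and coordinates come from GENCODE M21 (GRCm38), promoters from RefSeq (GRCm38.p6), matched by symbol for 9137 of the tested genes.

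Named genes are the 10 largest fitted rises and 10 largest falls among called, non-overlapping genes whose mean log2 CPM reached 2, leaving out unnamed, Gm, Rik and mitochondrial genes; the 6 largest gains and 6 losses in mean CPM; each list's largest called rise, largest called fall and highest member; and a fixed set of inflammatory, lipid, sialic acid and cell cycle genes. Members not called are named where at most 5 of a list were not called. Other list members given only by a log2 difference were chosen after their values were seen. The comparison, its 44 lists and the tests were chosen with earlier results of these data known. Alternatives were DESeq2 1.42.0, other scalings and filters, the 6 libraries alone, thinning to equal depth, each library left out in turn, and for promoters a shorter window and other κB forms. Some named genes and list members are counted in the lists but not reported singly here.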

Additional observations from a re-analysis of the deposited data

How the results depend on the processing

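Across 16 alternatives, values of 149 named genes were compared with the main fit by side of the threshold and by direction. Direction was compared only where the main fit or the alternative called the gene, and an alternative without an adjusted p for a gene gave no value. Unchanged were 2340 values, while 25 lost and 5 gained a call, and 9 reversed. Every reversal came from scaling by library size alone: Atp5b (log2 -0.05), C3ar1 (-0.17), Csnk1d (-0.03), Cx3cr1 (-0.09), Irf8 (-0.24), Lyz2 (-0.02), Maf (-0.10), mt-Co1 (-0.14) and mt-Nd6 (-0.12). That scaling gave 2434 genes higher and 6393 lower, against 3978 and 4226. The other alternatives gave 3810 to 4108 higher and 3838 to 4497 lower, and leaving out 1 library of the comparison 3811 to 3921 and 3991 to 4122. For the 88 list counts, 39 alternative values differed by over 1.5 times, 10 of them on leaving out 1 library. Beside those in the text, members higher fell from 4 to 2 and members lower rose from 1 to 2 among dendritic cell markers when 10 counts were required in every library of a group. Lower dendritic markers were also 2 with library size alone, lower lymphocyte markers 1 with DESeq2 against 2, and 1 was higher with no filter. Counts lower by DESeq2 were 1 for interferon factors and STATs, also 1 when thinned to equal depth, and 0 for mitochondrial messenger RNAs. The κB share of all promoters was 3.90% in the 250 bases before the start and 2.12% with other κB forms. With those forms it was 4.28% for genes at least 2-fold higher and 2.44% for tested genes. The E2F share of genes at least 2-fold lower was 5.48% in the shorter window, against 3.25% for tested genes. For replication genes it was 24.4% in that window. Depth limits genes with few counts in 1 group, such as Csf3, Il6, Tlr5 and Pdcd1lg2, whose fold has no narrow bound. The compared groups were not paired, because the codes D1, D2 and D3 do not match A2plus, B2plus and C2plus one by one. The untreated-labelled codes A2, B2 and C2 do match A2plus, B2plus and C2plus in letter and number. What that match means is not given in the labels used here, and the model took all libraries as unpaired.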
